A study of Mus musculus with 3 samples.

Results

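Expression of 9 genes for leukocyte adhesion and passage (*Icam1*, *Icam2*, *Vcam1*, *Sele*, *Selp*, *Pecam1*, *Cd99l2*, *Alcam* and *Mcam*) was examined in endothelial cells (EC) of mouse Peyer's patches (PP), the lymphoid tissue of the small intestine. The 9 genes were taken by symbol, and each has 1 row among the 31053 genes of the deposited tables. The data are droplet-based single-cell counts from 3 libraries, 1 control and 2 EC-iCOUP_OE. The control library is labelled wild-type on the C57BL/6 background, and the study's methods describe controls as littermates that lack the Cre transgene. Its results name tamoxifen-treated Cre-negative controls and also WT mice. Which of these the library holds is not stated in the sources used here. The EC-iCOUP_OE libraries, labelled replicates 1 and 2, carry CDH5(PAC)CreERT2 together with COUP-TFII OE/OE, so that tamoxifen switches on COUP-TFII (encoded by *Nr2f2*), the transcription factor of venous identity, in cells that use the *Cdh5* promoter. All mice were 6 to 10 weeks old, and males and females were pooled. The methods place cell isolation at 14 to 19 days after tamoxifen for EC-iCOUP_OE and control mice alike. The day and the number of mice behind each library are not given in the sources used here.

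Circulating leukocytes are first slowed by selectins. P-selectin (*Selp*) and E-selectin (*Sele*) on venules bind sialylated and fucosylated glycans on the leukocyte, and integrins then bind the immunoglobulin-family ligands ICAM-1, ICAM-2, VCAM-1 and, in gut vessels, MAdCAM-1 (*Madcam1*). PECAM-1 (*Pecam1*), CD99-like 2 (*Cd99l2*), ALCAM (*Alcam*) and MCAM (*Mcam*) are proteins of cell contacts, of which the first 2 take part in passage between endothelial cells. In lymphoid tissue lymphocytes enter through high endothelial cells (HEC), and inflammatory recruitment runs through post-capillary venules (PCV).

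The upstream sequences of *Icam1*, the adhesion gene that passed the size rule, and of the selectins *Selp* and *Sele*, neighbours on chromosome 1, are shown because the manipulated factor and its partners read DNA directly. Each run gives the 250 bases before the transcription start in RefSeq on GRCm38.p6, 5' to 3' on the gene's strand, which is the forward strand for all of them. Capitals mark TGACC (the COUP-TFII core), AAGTG (the NKX2-3 core) and GGNNTTTCC (NF-kB), each searched on both strands. *Selp* is at chr1:164115014-164115263, *Sele* at chr1:164047984-164048233 and *Icam1* at chr9:21015690-21015939.
Selp: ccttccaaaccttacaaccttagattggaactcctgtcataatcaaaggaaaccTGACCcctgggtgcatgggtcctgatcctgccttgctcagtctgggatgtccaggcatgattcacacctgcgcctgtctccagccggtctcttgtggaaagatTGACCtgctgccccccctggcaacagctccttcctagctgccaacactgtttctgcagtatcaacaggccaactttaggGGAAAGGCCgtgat
Sele: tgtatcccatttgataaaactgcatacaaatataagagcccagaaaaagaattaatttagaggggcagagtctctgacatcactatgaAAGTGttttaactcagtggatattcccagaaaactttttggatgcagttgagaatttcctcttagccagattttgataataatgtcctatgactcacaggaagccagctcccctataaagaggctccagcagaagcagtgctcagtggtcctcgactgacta
Icam1: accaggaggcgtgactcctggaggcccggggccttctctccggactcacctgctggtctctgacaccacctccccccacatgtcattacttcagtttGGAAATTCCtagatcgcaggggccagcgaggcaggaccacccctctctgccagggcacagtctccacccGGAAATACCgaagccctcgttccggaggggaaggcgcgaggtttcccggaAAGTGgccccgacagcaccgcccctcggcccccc
The *Selp* window held TGACC at 2 positions, starting 196 and 93 bases before the start site, and 1 NF-kB match. The *Icam1* window held no TGACC, 1 AAGTG and 2 NF-kB matches. The *Sele* window held 1 AAGTG and neither TGACC nor GGNNTTTCC. Other forms of the NF-kB site were not searched, so that the window is not shown to lack such a site. Of 32851 promoter windows of this length, 35.2% held TGACC, 40.7% held AAGTG and 4.93% held GGNNTTTCC, and the matches are a description of the letters only. Promoters of 6 of the 9 genes were in the table used, and those of *Mcam*, *Alcam* and *Cd99l2* held none of the motifs.

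The libraries held 6080, 4959 and 1441 barcodes (control, EC-iCOUP_OE replicate 1 and replicate 2) with 17341398, 17417260 and 3548983 unique molecular identifiers (UMIs). After filtering, 2377, 3260 and 961 cells were blood EC. The control library also held 2431 fibroblasts, against 7 and 4 in the EC-iCOUP_OE libraries, and its barcodes shared 12 sequences with replicate 2. The barcodes of replicate 1 start differently from those of the others (AAACCC and not AAACCT among the first), and that library was processed with another software version, so that genotype and processing cannot be told apart for it. Male cells, called by Y-linked UMIs, were 110 of the control blood EC against 813 and 164, and female cells were 1660, 1247 and 472.

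Clusters were named from marker genes where the mean log2 ratio of the markers reached 0.65, a value set after the scores were seen. HEC (*Glycam1*, *Fut7*) held 434, 104 and 4 cells, PCV (*Ackr1*, *Vwf*) 401, 742 and 89, PP capillary EC (PP CapEC, *Gpihbp1*, *Rgcc*) 803, 202 and 172, capillary resident progenitors (CRP, *Apln*, *Esm1*) 156, 198 and 85, and arterial EC (*Gja4*, *Sema3g*) 533, 198 and 107. The markers of CRP and PP CapEC overlapped. Mean log2 ratios of CRP and capillary markers were 1.97 and 1.84 in CRP cluster 13 and 2.58 and 1.35 in CRP cluster 9. *Gpihbp1* led cluster 9, and *Esm1* was among the 10 leading genes of PP CapEC clusters 4 and 6. *Gkn3*, a marker of mature arterial EC, was near absent from the EC-iCOUP_OE arterial clusters, with 157, 3 and 0 UMIs in cluster 5 and 9, 0 and 0 in cluster 11, and cluster 11 (121, 86 and 62 cells) also held few *Gja5* UMIs (7, 1 and 1). Lymphatic EC numbered 1, 899 and 126, so that no control value could be given for them. PP CapEC were made of clusters 4, 6 and 12, and among the 10 leading genes of cluster 4 were 4 haemoglobin genes and 2 capillary markers, so that values are also given by cluster.

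The score left 4 clusters of blood EC without a name, and these held few control cells. Cluster 1, led by *Cxcl10* and *Tgtp2*, had 9, 542 and 283 cells, which were 0.379%, 16.6% and 29.4% of the blood EC of each library. Cluster 8, led by *Hba-a2* and *Rsad2*, had 15, 340 and 56 cells (0.631%, 10.4% and 5.83%). Cluster 2, led by *Cyp1a1* and *Enpp6*, had 10, 534 and 145 (0.421%, 16.4% and 15.1%), and cluster 7, led by *Colec12* and *Ltc4s*, had 16, 400 and 20 (0.673%, 12.3% and 2.08%). The study's own cell labels, held here for part of the EC-iCOUP_OE cells alone, read PP CapEC for 397 of 414 labelled cells of cluster 1, 133 of 139 of cluster 8 and 296 of 299 of cluster 2. The same label was on 147 of 158 labelled cells in the clusters named arterial here and on 72 of 146 in those named CRP. Of the same 146 cells 38 were labelled as lamina propria capillaries and 36 as CRP, the latter all in cluster 9, whereas the 22 labelled cells of CRP cluster 13 all read PP CapEC. Of 134 labelled cells of cluster 7, 78 read HEC, 46 PP CapEC and 9 PCV, whereas 34 cells of the cluster named HEC carried the HEC label. Most cells with the HEC label thus lay outside the HEC compared here. Rebuilt names and study labels thus cover different cells.

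Levels are UMIs summed over the cells of a subset and library, as counts per 1000000 UMIs (CPM), with exact Poisson 95% intervals that cover counting error only. A gene was called higher or lower when both EC-iCOUP_OE libraries differed from the control at least 2-fold, provided that some library held 50 UMIs or more. With 1 control library, whose spread is unknown, no test was made. SDs of log2 ratios are over the 2 EC-iCOUP_OE libraries, which share that control, and leave out its counting error.

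The labels were checked on *Nr2f2*. In PP CapEC *Nr2f2* stood at 9.24 CPM in the control and at 710 and 500 CPM in EC-iCOUP_OE replicates 1 and 2. In PCV, which express it normally, the values were 259, 1922 and 1666 CPM.

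Of all adhesion genes and subsets compared, *Icam1* in CRP was the one called, and it was higher in EC-iCOUP_OE. *Icam1* was 1 of 4 genes with enough UMIs in CRP, where 4.93% of the 2312 genes compared were called higher and 1.95% lower. In PP CapEC none of 4 was called (background 1.14% higher and 2.02% lower), in arterial EC none of 5 (1.79% and 3.27%) and in PCV none of 8 (3.03% and 1.58%). The median log2 ratio of the compared adhesion genes, in replicates 1 and 2, was 0.29 and 0.28 in PP CapEC, 0.44 and 0.44 in CRP, 0.34 and 0.43 in arterial EC and -0.22 and -0.13 in PCV. Over all genes compared in the same subsets it was -0.12 and -0.18, 0.12 and -0.01, -0.10 and -0.16, and 0.08 and -0.16. When each gene's 2 ratios were averaged first, the PCV median was 0.25, so that its sign depended on the order of averaging.

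What PP CapEC showed depended on how clusters were named. With clusters 1, 2 and 8 added to PP CapEC by the study's labels (837, 1618 and 656 cells), *Icam1* was 58.6, 368 and 736 CPM (log2 ratio 3.15). *Selp* was 9.54, 37.3 and 79.7 CPM (2.51). Both were called higher, where 4.61% of all genes were called higher and 2.23% lower. Cluster 1, with 9, 542 and 283 cells, held 7 of these 14 control *Selp* UMIs and 122 of 169 and 86 of 118 in the EC-iCOUP_OE libraries. Within cluster 1 *Selp* was not higher in EC-iCOUP_OE (493, 83.0 and 126 CPM). With each cluster given its best marker list at any score above 0, which adds cluster 8 alone (818, 542 and 228 cells), *Icam1* was 58.3, 141 and 132 CPM (1.22) and called, where 2.91% of all genes were called higher and 1.9% lower, and *Selp* was not called, with 7, 25 and 8 UMIs. Both namings were tried after the data had been seen.

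**Figure D1:**
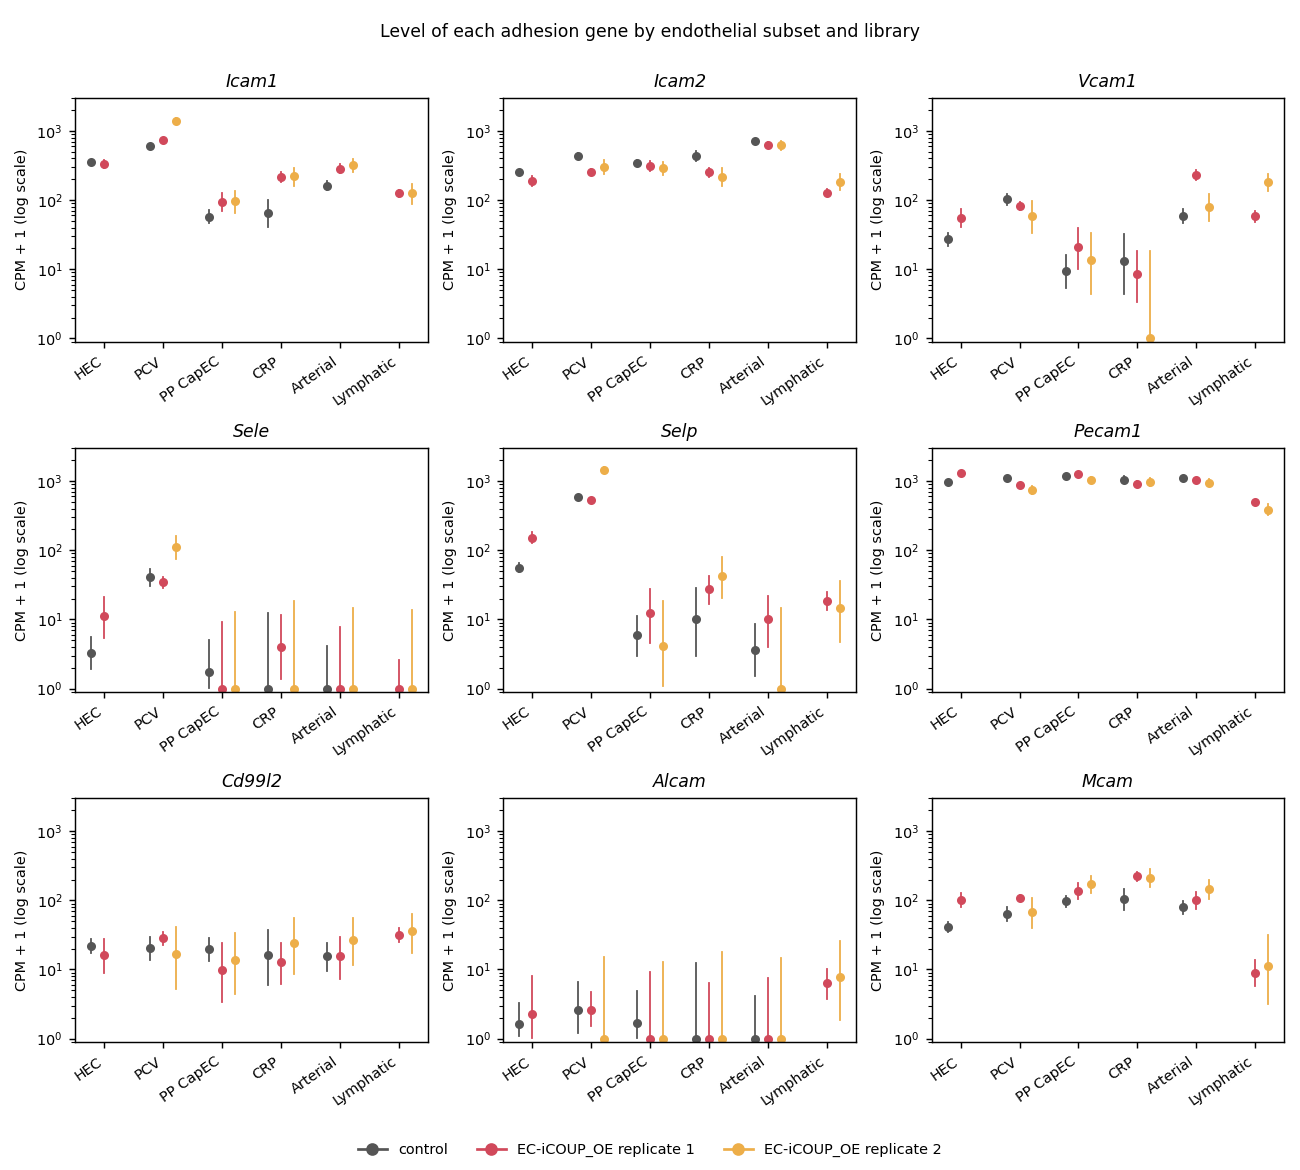
Level of each adhesion gene (CPM plus 1, log scale) in 6 endothelial subsets. Points are libraries (grey, control; red and yellow, EC-iCOUP_OE replicates 1 and 2), bars are exact Poisson 95% intervals, and subsets with under 10 cells in a library are left out. *Icam1* and *Selp* are highest in PCV in every library, and in CRP both EC-iCOUP_OE points of *Icam1* (214 and 219 CPM) lie above the control (64.7 CPM).

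*Icam1*, the ligand of the leukocyte integrins LFA-1 and Mac-1, was present in every blood EC subset, in the control library in the order PCV, HEC, arterial EC, CRP and PP CapEC. The control values were 601 CPM (95% interval 559 to 645), 359 (338 to 380), 161 (139 to 186), 64.7 (40.1 to 98.9) and 56.8 (45.1 to 70.7), and of these neighbours CRP and PP CapEC alone overlapped. The EC-iCOUP_OE libraries kept the same order of subsets. Replicate 1 held 727, 332, 285, 214 and 93.8 CPM, with HEC, arterial EC and CRP overlapping their neighbours in turn. Replicate 2, without HEC, held 1389, 317, 219 and 95.02 CPM, with arterial EC and CRP overlapping.

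In CRP *Icam1* stood at 64.7 CPM in the control, 214 in replicate 1 and 219 in replicate 2, from 21, 145 and 47 UMIs. Both EC-iCOUP_OE libraries lay above the control interval, 3.31-fold and 3.38-fold higher, a log2 ratio of 1.74 ± 0.02 (SD, n = 2 EC-iCOUP_OE libraries). Both ratios share the control count of 21 UMIs, whose error the SD leaves out. Their counting intervals were 1.06 to 2.46 and 0.98 to 2.57, the latter reaching just below the 2-fold rule. CRP were made of clusters 9 and 13, which differed: cluster 9 held 49.99, 220 and 252 CPM, whereas cluster 13 held 107, 75.3 and 73.5 CPM from 9, 2 and 3 UMIs. The call was lost when cells were clustered at resolution 0.6 or 1.6 (log2 ratios 0.98 and 0.84), when libraries were clustered separately (0.63) and with doublets kept (1.18). With each cell thinned to 1000 UMIs, an *Icam1* UMI was found in 7.69% of control CRP (12 of 156, Clopper-Pearson 95% interval 4.04 to 13.1), 16.7% of those of replicate 1 (33 of 198, 11.8 to 22.6) and 12.9% of those of replicate 2 (11 of 85, 6.64 to 21.98), with overlapping intervals.

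In PP CapEC *Icam1* was 56.8 CPM (45.1 to 70.7) in the control, 93.8 (67.6 to 127) in replicate 1 and 95.02 (64.1 to 136) in replicate 2, from 80, 42 and 30 UMIs. Both EC-iCOUP_OE values stood above the control, 1.65-fold and 1.67-fold, but the intervals of the levels overlapped and the log2 ratio of 0.73 ± 0.01 was short of the 2-fold rule. The counting intervals of the 2 log2 ratios were 0.15 to 1.28 and 0.08 to 1.36. The share of thinned cells with an *Icam1* UMI was 4.61% (37 of 803, 3.26 to 6.30), 6.93% (14 of 202, 3.84 to 11.4) and 6.98% (12 of 172, 3.66 to 11.9). Without thinning the shares were 7.72%, 15.8% and 14.0%, at median depths of 1451, 1845 and 1695 UMIs.

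The other subsets, each taken whole, gave no call for *Icam1*. In arterial EC it was 161, 285 and 317 CPM (0.90 ± 0.11), 1.77-fold and 1.97-fold the control. The arterial clusters differed. Cluster 11 held 92.3, 189 and 340 CPM (25, 44 and 55 UMIs), past 2-fold in both libraries (2.04-fold and 3.68-fold). Cluster 5 held 182, 398 and 270 CPM (2.19-fold and 1.49-fold). Shares of all genes past 2-fold were not computed for single clusters. *Icam1* in arterial EC was called higher at resolution 0.6 (1.83), with libraries clustered separately (1.70) and with clusters named at any marker score above 0 (1.79). With doublets kept it stood at 0.59. Naming at any score above 0 adds cluster 2 (10, 534 and 145 cells) to arterial EC, and the control cells of that cluster held no *Icam1* UMI. In PCV it was 601, 727 and 1389 CPM (0.74 ± 0.66), so that replicate 2 alone was past 2-fold. HEC of replicate 1 did not differ from the control beyond counting error (359 against 332 CPM, log2 ratio -0.11 with an interval of -0.31 to 0.09).

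**Figure D2:**
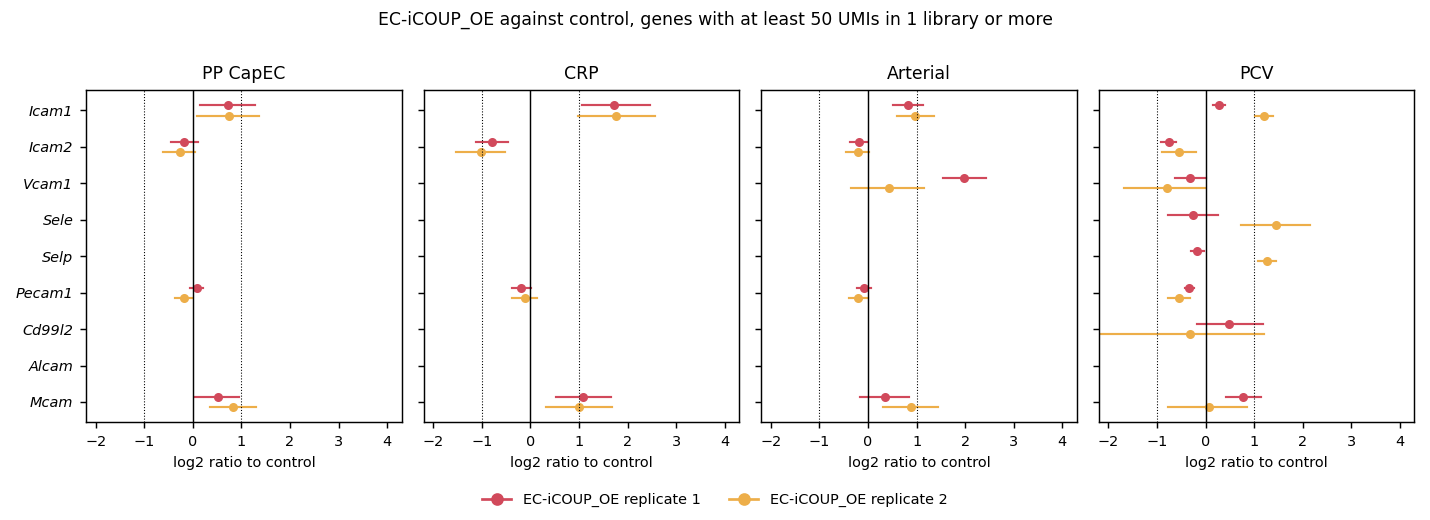
log2 ratio of each EC-iCOUP_OE library to the control (red, replicate 1; yellow, replicate 2) for adhesion genes that reached 50 UMIs in some library, in 4 subsets. Bars are exact 95% counting intervals and dotted lines mark a 2-fold difference. The *Icam1* points in CRP lie past the 2-fold line in both libraries, and those of no other gene do. The bar of replicate 2 there reaches just below that line.

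The clusters of PP CapEC differed in *Icam1*. In the capillary clusters that each library filled with at least 20 cells, clusters 4 and 6 (684, 171 and 167 cells), it was 28.9 CPM (19.6 to 41.0) in the control, 68.2 (42.8 to 103) in replicate 1 and 82.9 (53.7 to 122) in replicate 2, from 31, 22 and 25 UMIs. The EC-iCOUP_OE intervals did not reach into that of the control, and the log2 ratio was 1.38, with too few UMIs for a call. In the same cells the 7 PCV markers summed to 234, 837 and 581 CPM and the 9 genes of the dissociation response to 8265, 11637 and 17898 CPM, and their part in the result was not tested. *Nr2f2* there was 3.73, 797 and 498 CPM and *Madcam1* was 52.2, 403 and 431 CPM. Cluster 12 (119, 31 and 5 cells) held 147 CPM of *Icam1* in the control and 160 in replicate 1. Its control cells held 49 of the 80 *Icam1* UMIs of control PP CapEC, 6 of 7 *Selp* UMIs and all 12 *Vcam1* UMIs. In these cells the 6 HEC markers summed to 2725 CPM, above the 7 capillary markers (1543 CPM). In control clusters 4 and 6 the HEC markers summed to 195 and 170 CPM. Levels of control PP CapEC thus include cells rich in HEC markers.

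The unnamed clusters held more *Icam1* than PP CapEC, with little control to set beside it. Cluster 1 stood at 556 CPM (518 to 595) in replicate 1 and 866 (798 to 939) in replicate 2, on 817 and 589 UMIs, whereas its 9 control cells held 2 UMIs. Cluster 8 stood at 124, 165 and 222 CPM (4, 141 and 29 UMIs), a log2 ratio of 0.63 ± 0.30 with overlapping intervals. Cluster 7 held 127, 434 and 797 CPM (10, 954 and 60 UMIs), past 2-fold in both EC-iCOUP_OE libraries. Its control and EC-iCOUP_OE cells differed in markers. The 6 HEC markers summed to 11862, 1538 and 1181 CPM in cluster 7, and the 7 PCV markers to 8237, 5633 and 5137 CPM. Cluster 2 held 378 and 1246 CPM in the EC-iCOUP_OE libraries, and none of its 14098 control UMIs was *Icam1*, which allows up to 262 CPM by the exact interval.

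**Figure D3:**
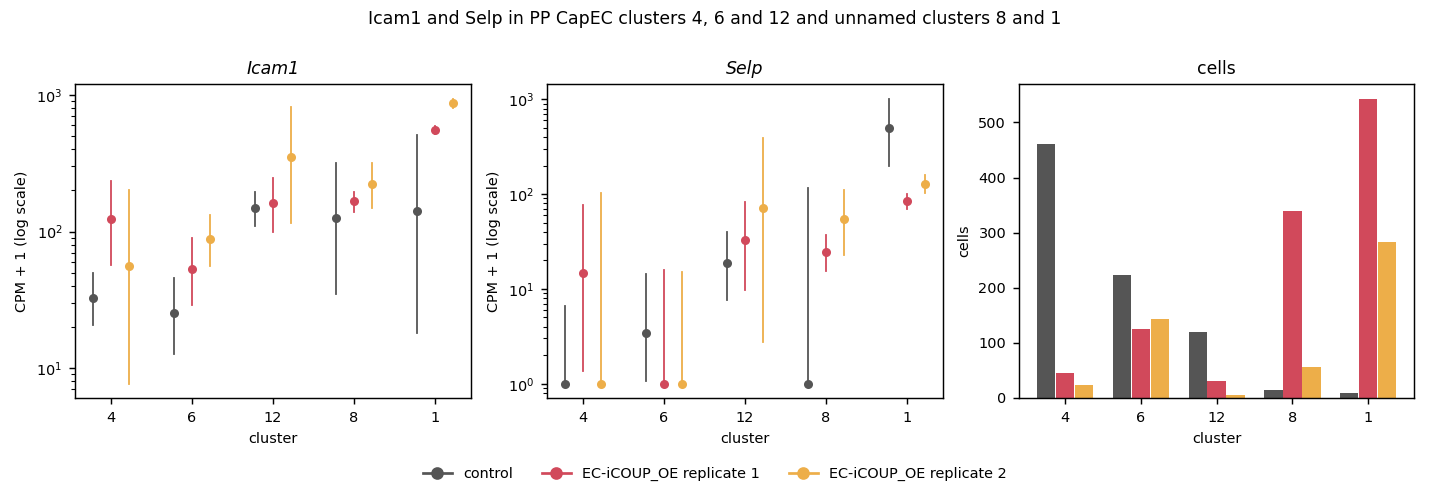
*Icam1* and *Selp* (CPM plus 1, log scale) and the number of cells in PP CapEC clusters 4, 6 and 12 and in the unnamed clusters 8 and 1 (grey, control; red and yellow, EC-iCOUP_OE replicates 1 and 2). Bars on points are exact Poisson 95% intervals. The control has 461, 223 and 119 cells in clusters 4, 6 and 12 but 15 and 9 in clusters 8 and 1, where its points rest on 4 and 2 *Icam1* UMIs and on 0 and 7 *Selp* UMIs.

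*Selp*, the selectin stored in endothelial granules, was a venular transcript. In the control library it stood at 592 CPM (551 to 636) in PCV, 54.9 (47.0 to 63.7) in HEC, 9.25 (1.91 to 27.0) in CRP, 4.97 (2.00 to 10.2) in PP CapEC and 2.56 (0.527 to 7.47) in arterial EC. The intervals of CRP, PP CapEC and arterial EC overlapped. PCV held 119-fold more than PP CapEC in the control, from 756 and 7 UMIs.

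In PP CapEC *Selp* was 4.97, 11.2 and 3.17 CPM, from 7, 5 and 1 UMIs, too few for a call. In CRP the values were 9.25, 26.6 and 41.8 CPM from 3, 18 and 9 UMIs, also too few. PCV gave 592, 527 and 1428 CPM, with replicate 1 below and replicate 2 above the control. PCV pooled clusters 0 and 10, and cluster 10 (80, 238 and 5 cells) held less *Selp* (297 CPM in the control and 238 in replicate 1). In cluster 0 *Selp* was 652, 643 and 1462 CPM. There replicate 1 did not differ from the control beyond counting error (log2 ratio -0.02, interval -0.15 to 0.11). In HEC, where replicate 1 alone could be compared, *Selp* was 54.9 CPM in the control and 152 in replicate 1, a log2 ratio of 1.47 with a counting interval of 1.12 to 1.81. Among female HEC (369 and 23 cells) it was 58.3 CPM (49.7 to 68.1) and 85.2 (49.7 to 136), with overlapping intervals. Among male HEC (20 and 52 cells) it was 9.45 CPM, from 1 UMI, and 193 CPM.

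In thinned cells *Selp* was found in 1 of 803 control PP CapEC, in 0 of 202 of replicate 1, which allows a share of up to 1.49%, and in 0 of 172 of replicate 2, which allows up to 1.74%. The PCV shares were 39.9%, 35.04% and 55.1%. Pericytes, which should lack the gene, gave 0 of 196 and 0 of 90 thinned cells in the EC-iCOUP_OE libraries, which allows shares of up to 1.53% and 3.33%, at median depths of 3998 and 3134 UMIs. These limits for shares of 0 are approximate and lie somewhat below the Clopper-Pearson ones.

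Outside the named subsets *Selp* was found in cluster 1, at 493 CPM (198 to 1015) in the control, 83.0 (68.9 to 99.0) in replicate 1 and 126 (101 to 156) in replicate 2. The control value rests on 7 UMIs in 9 cells and stood above both others. Of the thinned EC-iCOUP_OE cells of the cluster, 5.17% (28 of 542, 3.46 to 7.38) and 9.19% (26 of 283, 6.09 to 13.2) held a *Selp* UMI, above the limits for pericytes of the same library. By the study's labels 16 of 414 labelled cells of the cluster read PCV, and their part in these shares was not tested. In replicate 1 the share was 5.66% (26 of 459, 3.73 to 8.19) in cells with a *Madcam1* UMI and 2.41% (2 of 83, 0.293 to 8.43) in cells without, with overlapping intervals. In replicate 2 it was 10.1% (26 of 257, 6.72 to 14.5) and 0 of 26, which allows up to 13.2% by the Clopper-Pearson interval. Split by *Nr2f2*, the shares with and without a UMI were 5.42% (26 of 480) and 3.23% (2 of 62) in replicate 1 and 7.69% (17 of 221) and 14.5% (9 of 62) in replicate 2, with overlapping intervals and opposite order in the 2 libraries. Cluster 8 held 0 *Selp* UMIs in the control and 23.4 and 53.6 CPM in the EC-iCOUP_OE libraries, and cluster 7 held 114, 106 and 385 CPM.

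**Figure D4:**
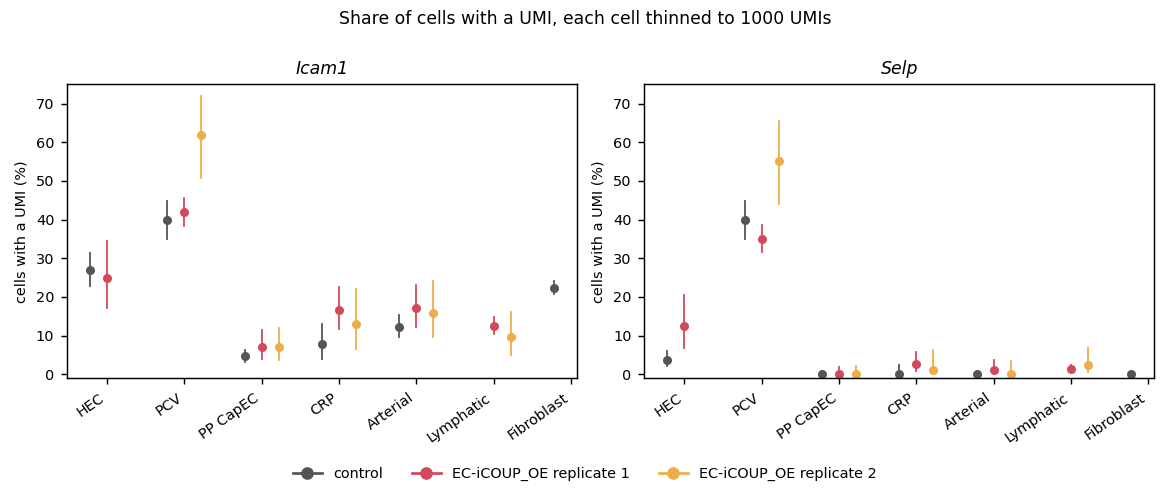
Share of cells in which a UMI of *Icam1* or *Selp* was found after thinning each cell to 1000 UMIs, by subset (grey, control; red and yellow, EC-iCOUP_OE replicates 1 and 2). Bars are Clopper-Pearson 95% intervals, and groups under 10 cells are left out. *Selp* is in 35.04% to 55.1% of PCV but near 0 in PP CapEC, and the *Icam1* shares of PP CapEC are 4.61%, 6.93% and 6.98%.

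*Sele*, the selectin that cytokines induce, was close to absent outside PCV among the named subsets. PCV held 39.9, 33.2 and 109 CPM (51, 102 and 28 UMIs), again with replicate 1 below and replicate 2 above the control. The counting interval of the log2 ratio of replicate 1 (-0.77 to 0.25) included no difference. HEC held 2.23 CPM in the control and 10.2 in replicate 1, from 7 and 8 UMIs. In arterial EC no library had a *Sele* UMI, and PP CapEC had 1, 0 and 0 UMIs. The unnamed cluster 7 held 38.0, 7.28 and 13.3 CPM (3, 16 and 1 UMIs), and its control interval (7.84 to 111) overlapped that of control PCV. As given above, the control cells of cluster 7 held more HEC and PCV markers than its EC-iCOUP_OE cells.

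Other measures also differed between the libraries, not all in step with *Icam1*, and their part in the result was not tested. The summed level of 7 PCV markers, none of them an adhesion gene of the set, was 351, 529 and 697 CPM in CRP, with no marker at 0 but *Tll1* in replicate 2, and 497, 1019 and 576 CPM in PP CapEC. In cluster 1 of the EC-iCOUP_OE libraries it was 2774 and 4001 CPM, while the 7 capillary markers summed to 953 and 1817 CPM there, against 1756, 1782 and 2689 CPM in PP CapEC. The 9 genes of the dissociation response summed to 4636, 5498 and 9424 CPM in CRP. There *Fos* alone of these was called higher, where 4.93% of all genes were. In PP CapEC they summed to 8060, 9493 and 17518 CPM, and none was called (1.14% of all genes higher and 2.02% lower). In cluster 1 of EC-iCOUP_OE replicates 1 and 2 these 9 genes summed to 21527 and 20789 CPM. In arterial EC *Hspa1b*, 1 of 9, was called higher, where 1.79% of all genes were. Fibroblast markers summed to 74.0 CPM in control CRP and to 0 and 4.65 CPM in the others, with 1, 6 and 5 of the 6 markers at 0. In PP CapEC erythroid genes summed to 1990, 1832 and 19.0 CPM. In cells without a UMI of fibroblast, pericyte, lymphocyte, myeloid, epithelial, glial or platelet markers the log2 ratio of *Icam1* was 1.54 in CRP and 1.00 in PP CapEC.

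Sex differed between the libraries, and *Icam1* in PP CapEC differed in direction between the sexes. Among female cells it was 55.1, 173 and 113 CPM (51, 13 and 14 UMIs), a log2 ratio of 1.34 that met the call rule, though the interval of replicate 2 (61.9 to 190) overlapped that of the control (41.0 to 72.4). Among male cells it was 139, 56.2 and 62.9 CPM (10, 7 and 3 UMIs), a log2 ratio of -1.23 with overlapping intervals. In CRP of female cells the log2 ratio was 1.85, and the control held fewer than 10 male CRP cells.

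*Icam2*, the constitutive integrin ligand of endothelium, stood below the control in both EC-iCOUP_OE libraries of all 4 subsets compared but passed the 2-fold rule in none. In PP CapEC it was 348, 308 and 288 CPM (log2 ratio -0.22 ± 0.07) with overlapping intervals, in CRP 435, 251 and 214 CPM (-0.91 ± 0.16), in PCV 437, 257 and 300 CPM (-0.65 ± 0.15) and in arterial EC 723, 632 and 623 CPM (-0.20 ± 0.01). Arterial EC were the highest subset in all libraries. The direction was not that of every cluster: arterial cluster 5 held 741, 817 and 830 CPM and PP CapEC clusters 4 and 6 held 334, 344 and 289 CPM, both with overlapping intervals. Cluster 1 held 422, 216 and 169 CPM and cluster 8 held 588, 188 and 168 CPM, with few control cells in both.

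*Vcam1*, the ligand of the integrin alpha-4 beta-1, was low in capillaries. PP CapEC held 8.53, 20.1 and 12.7 CPM (12, 9 and 4 UMIs), with overlapping intervals, and CRP 4, 5 and 0 UMIs. Control fibroblasts, for comparison, held 374 CPM. PCV gave 101, 81.4 and 58.4 CPM, a log2 ratio of -0.55 ± 0.34.

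In arterial EC *Vcam1* was 57.9 CPM (45.0 to 73.4) in the control, 229 (191 to 273) in replicate 1 and 78.3 (48.5 to 120) in replicate 2. The interval of replicate 1 alone was clear of that of the control, and the log2 ratio of 1.21 ± 1.10 had a spread near its size. Cluster 14, which had 43 cells of replicate 1 but 1 and 2 of the others, held 68 of the 127 arterial *Vcam1* UMIs of replicate 1, at 505 CPM. In arterial cluster 5 the values were 61.0, 253 and 116 CPM, and in cluster 11 they were 48.0, 51.5 and 43.3 CPM. In HEC *Vcam1* was 26.2 CPM in the control and 54.8 CPM in replicate 1, a 2.09-fold difference with a log2 interval of 0.50 to 1.61.

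*Pecam1*, the junction protein of all endothelium, was at similar levels among the blood EC subsets. Control levels of the named subsets ran from 977 CPM in HEC to 1182 CPM in PP CapEC, and lymphatic EC of the EC-iCOUP_OE libraries held 505 and 386 CPM. In PP CapEC the values were 1182, 1246 and 1039 CPM (log2 ratio -0.06 ± 0.19), on either side of the control, and in PCV 1094, 867 and 747 CPM (-0.44 ± 0.15). CRP (-0.15 ± 0.05) and arterial EC (-0.14 ± 0.08) were closer to the control than PCV. HEC of replicate 1 differed in sign, at 1314 CPM against 977 (0.43, interval 0.32 to 0.53).

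*Mcam*, a contact protein also found on pericytes, stood above the control in both EC-iCOUP_OE libraries of PP CapEC, CRP, arterial EC and PCV, without a call. PP CapEC held 95.9, 136 and 171 CPM (log2 ratio 0.67 ± 0.23) and CRP 105, 220 and 209 CPM (1.03 ± 0.05). In CRP replicate 1 was at 2.10-fold and replicate 2 at 2.00-fold, the latter just short of the rule. *Mcam* in CRP was called with scaling by trimmed means (TMM, 1.06), at resolution 0.6 (1.30), with libraries clustered separately (1.15), in cells without markers of other cell types (1.29), in clusters with at least 20 cells in every library (1.24) and without replicate 2 (1.07), and was at 0.43 at resolution 1.6. Arterial EC held 78.4, 99.3 and 145 CPM and PCV 62.7, 107 and 66.2 CPM. The counting intervals of the log2 ratio reached below the control in arterial EC of replicate 1 (-0.17 to 0.84) and PCV of replicate 2 (-0.77 to 0.85). PP CapEC clusters 4 and 6 held 103, 115 and 166 CPM with overlapping intervals. In cluster 6 alone replicate 1 was below the control (100 against 112 CPM). Unnamed cluster 8 held 30.9, 176 and 153 CPM (1, 150 and 20 UMIs) and cluster 7 held 38.0, 111 and 92.9 CPM (3, 245 and 7 UMIs). Both were past 2-fold in each EC-iCOUP_OE library, on those few control UMIs and with no share of all genes computed. Clusters 1 and 2 had 0 control UMIs of *Mcam*, against 129 and 165 CPM and 113 and 87.4 CPM in the EC-iCOUP_OE libraries. Lymphatic EC were lowest, at 7.91 and 10.3 CPM. In HEC *Mcam* was 40.2 CPM in the control and 101 in replicate 1, so that *Vcam1*, *Selp* and *Mcam*, 3 of the 7 adhesion genes with enough UMIs, were at least 2-fold higher in that library, where 6.07% of all genes were, and none was lower (4.71% of all genes). Among female HEC the control and replicate 1 intervals of *Vcam1* and *Mcam* did not overlap, whereas those of *Selp* did. Among male HEC (20 and 52 cells) those of *Vcam1* (10.3 to 96.8 and 28.4 to 73.6 CPM) and *Mcam* (10.3 to 96.8 and 56.3 to 115 CPM) overlapped. Since HEC were compared with replicate 1 alone, genotype and processing cannot be told apart in these differences.

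*Cd99l2* was low and even, between 8.93 and 27.3 CPM in the named blood EC subsets of all libraries with at least 10 cells, from 4 to 84 UMIs, and its intervals overlapped within each subset. *Alcam* was near the detection limit, with 0 to 5 UMIs per named blood EC subset and library, whereas glia of the control library held 204 CPM. At these depths neither gene gave a detectable difference.

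Further genes of the adhesion cascade, a list of 27, gave 8 calls higher and 2 lower over the 4 subsets. In PP CapEC 21 had enough UMIs, of which 2 were higher (*Madcam1* and *Cd9*), where 1.14% of all genes were, and none lower. *Madcam1*, the gut addressin, was 259, 652 and 564 CPM there (log2 ratio 1.23 ± 0.15). In PP CapEC clusters 4 and 6 alone it was 52.2, 403 and 431 CPM. *Cd9*, a tetraspanin that gathers ICAM-1 and VCAM-1 into platforms, was 447, 1108 and 1261 CPM (1.40 ± 0.13). In CRP 3 of 17 were higher (*Madcam1*, *Cd9* and *Nectin2*), where 4.93% of all genes were. The junctional molecule *Jam2* (330, 99.1 and 158 CPM) was the 1 called lower, where 1.95% of all genes were. *Madcam1* in CRP was 160, 999 and 1827 CPM and *Nectin2*, a nectin of cell contacts, was 83.2, 417 and 298 CPM. In arterial EC 2 of 19 were higher (*Madcam1* and *Cd9*), where 1.79% of all genes were. *Jam3* (74.98, 27.1 and 22.4 CPM) was the 1 called lower, where 3.27% of all genes were. In PCV, with 3.03% of all genes higher, 1 of 22 was, *Nectin2* (98.7, 200 and 202 CPM), and *Madcam1* was 4244, 2975 and 4305 CPM.

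Of 8 feedback genes of NF-kB, the factor through which cytokines induce *Icam1* and *Sele*, 6 had enough UMIs in PP CapEC. None was called there, where 1.14% of all genes were higher and 2.02% lower. The list summed to 977, 939 and 1446 CPM in CRP, to 1149, 1396 and 1587 CPM in PP CapEC and to 2636, 2276 and 4367 CPM in PCV, where replicate 2 also had the highest *Icam1*, *Sele* and *Selp*. In PCV *Nfkb2*, 1 of 8, was called lower (76.8, 35.2 and 19.5 CPM), where 1.58% of all genes were. Cluster 1 of EC-iCOUP_OE replicates 1 and 2 held 2029 and 3407 CPM of the list.

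Across 24 sums of subset or unnamed cluster and library with at least 20 cells, and 5931 genes, the levels most like those of *Icam1* were *Map3k8* (Pearson's r = 0.86 on log2 of CPM plus 10), *Nfkbia* (0.84) and *Gem* (0.84). *Selp* was most like *Acer3* (0.85), *Gem* (0.84) and *Kcnh1* (0.83), *Icam2* most like *Card19* (0.88), *Emp2* (0.88) and *Mgp* (0.86), and *Vcam1* most like *Ctsh* (0.84), *Avpi1* (0.78) and *Cald1* (0.78). *Mcam* was most like *Sparc* (0.94), *Mndal* (0.91) and *Cd34* (0.91), *Pecam1* most like *Dram1* (0.89), *Igfbp7* (0.86) and *Plscr2* (0.84), and *Cd99l2* most like *Mindy1* (0.80), *Mapkap1* (0.78) and *Pds5b* (0.77). The points share libraries and depth, and the values are descriptions.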

How the data were processed

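The authors counted UMIs per gene and barcode with Cell Ranger 3.0.2 against mm10, as the submitters' processing notes state, and deposited raw counts. The file headers name software version 3.1.0 for EC-iCOUP_OE replicate 1 and 3.0.2 for the others. Columns of per-sample values left unused numbered 0.

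Barcodes were required to have 500 genes and 1000 UMIs or more and mitochondrial reads of 10% or less (5473, 4750 and 1243 passed). Scrublet scores in scanpy 1.11.5 ranked doublets, and the highest 0.8% per 1000 barcodes were removed (266, 188 and 14). Seurat 5.3.0 integrated and clustered the cells (reciprocal PCA, 30 components, Louvain resolution 1) without the adhesion genes among the variable genes. A first round removed other cell types and a second gave the subsets. Clusters were named at a mean log2 marker ratio of at least 0.65, which was set after the scores were seen. The study's subset labels, held here in part and for EC-iCOUP_OE cells alone, served to tell capillaries of the lamina propria from those of PP and, as an alternative, to name clusters under that score. Where a count was 0, ratios used a floor of 3 UMIs per library. With 1 control library no P value was computed, and intervals cover counting error at 95% only. On counts simulated for 31053 genes at the depth of PP CapEC, the size rule called 100 of 100 genes raised 4-fold, 94 of 100 lowered 4-fold and 4 of 4001 unchanged genes. The simulated counts held Poisson counting error alone, without differences between libraries in cell mix, sex or processing. Calls that such differences produce were therefore not measured, and changes near 2-fold were not simulated. Trimmed mean of M values (TMM) factors came from edgeR 4.0.16.

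The 9 genes, the gene and marker lists and the alternatives were chosen with earlier results of these data known. Named genes were the 9, list genes that passed the rule in PP CapEC or in at least 2 subsets, the 3 genes most like each of the 9, and *Nr2f2*. *Jam2*, *Jam3*, *Nfkb2*, *Fos* and *Hspa1b* lie outside that rule and were chosen after their values were seen. The alternatives were other resolutions, separate clustering, doublets kept, TMM, deeper cells, cells without other markers, each sex, other minimums and leaving out a library. Restriction to clusters filled in every library, naming by study labels and naming at any score above 0 were chosen after seeing the data.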

Additional observations from a re-analysis of the deposited data

Results flagged for a closer look

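*Vcam1* ratios differed in sign between arterial EC and PCV, each with 1 counting interval that included no difference. In arterial EC both EC-iCOUP_OE libraries were above the control (log2 ratios 1.98 and 0.43) and in PCV both were below it (-0.31 and -0.79), so that the mean ratios lay 1.76 apart on the log2 scale. The counting interval ran from -0.35 to 1.16 in arterial EC of replicate 2 and from -0.62 to 0.01 in PCV of replicate 1. HEC of replicate 1 stood above the control (1.07). The difference was not tested. In the arterial clusters filled in every library the *Vcam1* ratio was 0.79, and with libraries clustered separately it was 0.01.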

How the results depend on the processing

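Of 278 log2 ratios of adhesion genes under alternatives, 263 kept the direction reported and 206 lay within 1 SD of it. *Icam1* in CRP had a log2 ratio of 0.98 at resolution 0.6, 0.84 at 1.6, 0.63 with libraries clustered separately and 1.18 with doublets kept, all without a call, and 1.77 with TMM, 1.87 in cells with at least 2000 UMIs, 1.54 in cells without other markers, 1.85 in female cells, 2.24 in clusters filled in every library, and 1.73 to 1.76 with 1 EC-iCOUP_OE library left out, where replicate 2 alone fell short of 50 UMIs. *Icam1* in PP CapEC had 1.40 at resolution 0.6, 0.76 at 1.6, 1.07 with doublets kept, 0.74 with TMM, 0.36 in deeper cells, 1.00 in cells without other markers, -1.23 in male and 1.34 in female cells, 1.38 in clusters filled in every library, 3.15 with clusters added by study labels, 1.22 with any score above 0, and 0.72 to 0.74 with 1 library left out. With separate clustering PP CapEC had no value for it.

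Adhesion genes called higher, summed over subsets, were 1, against 2 at resolution 0.6, 0 at 1.6, 4 with separate clustering, 0 with doublets kept, 2 with TMM, 2 in cells without other markers, 0 in male and 2 in female cells, 2 with a minimum of 10 UMIs or none, 2 in clusters filled in every library, and 3 with either other naming, these last 3 settings being chosen after seeing the data. The genes differed: at resolution 0.6 and with separate clustering the calls were *Mcam* in CRP and *Icam1* in arterial EC, with *Selp* and *Mcam* in HEC added in the latter, and not *Icam1* in CRP. Of 18 comparisons without replicate 1, 3 were called higher and 1 lower (*Icam2* in CRP). Of 28 comparisons without replicate 2, 6 were called higher and 0 lower. Both settings ask for a 2-fold difference in 1 library only. The share of all genes so called was computed for HEC of replicate 1 alone (6.07% higher and 4.71% lower). For the other clusterings, scaling and filters the share of all genes called was not computed. Without replicate 1 *Icam1*, *Sele* and *Selp* in PCV were called higher. The cause was not tested. Of 360 levels under other clusterings, 307 lay within the counting interval, and of 126 unthinned shares 105 lay above the thinned one.

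The single control library limits every comparison, since its spread is unknown, and the depth of EC-iCOUP_OE replicate 2 limits HEC, CRP and genes with few UMIs. No paired analysis was possible because the control has 1 library, so the groups share fewer than 2 replicate numbers.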
